A study of Rattus norvegicus with 9 samples.

Results

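The 8 genes Cyp51, Idi1, Hmgcs1, Sqle, Insig1, Dhcr7, Fdft1 and Fdps, of sterol synthesis and its control, are known targets of the transcription factor SREBP2 and were followed in rat hypothalamus. The members were every probe set of the array that the platform annotation pairs with 1 of these symbols alone, which gave 10 probe sets for 7 of the 8 listed genes, out of 14217 named genes. Hmgcs1 was not analysed here. All 8 code for enzymes or for a feedback protein, and none is an uptake receptor. Each of 9 male rats, 13 weeks old, gave 1 array of hypothalamus RNA, and the study asked what seasonings in a noodle diet do. The 4 rats of the noodle diet ate instant noodles at 30% of the diet by weight, with 26% of energy from fat. The 5 rats on the control diet got the same feed free of seasonings, which is stated for the series, while the label of each rat carries one treatment text for both diets. Feeding lasted 30 days by one label and 4 weeks by another, pair-fed near 60 g per kg body weight a day, and no strain is named.

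Brain cells make their own cholesterol, because circulating lipoproteins hardly cross the blood-brain barrier. When sterols run low in the endoplasmic reticulum, the escort protein Scap leaves its anchor Insig and carries SREBP2 to the Golgi, where it is cut, and the freed part turns on the genes of the mevalonate and sterol pathway. Myelin holds a large share of brain cholesterol, and in the adult astrocytes are held to supply much of the sterol that neurons use. Within the pathway Hmgcs1 makes HMG-CoA, Idi1 interconverts the isoprene units, Fdps makes farnesyl diphosphate, Fdft1 joins it to squalene, Sqle opens sterol synthesis proper by oxidizing squalene, Cyp51 demethylates lanosterol, and Dhcr7 makes the last double-bond reduction to cholesterol. Insig1 is the feedback anchor and is itself an SREBP target.

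Promoter stretches of RefSeq (rat build GRCr8) were at hand for 6 of the 8 genes. Those of Cyp51, Idi1 and Insig1 are shown because Cyp51 and Idi1 were the genes that varied measurably, while Insig1 had the highest r with an Idi1 probe set. Each runs 5′ to 3′ over the 250 bases before the gene's start, and capitals mark CCAAT (or ATTGG, its reverse) and CACGTG.
Cyp51, chr4:30991443-30991692, plus strand: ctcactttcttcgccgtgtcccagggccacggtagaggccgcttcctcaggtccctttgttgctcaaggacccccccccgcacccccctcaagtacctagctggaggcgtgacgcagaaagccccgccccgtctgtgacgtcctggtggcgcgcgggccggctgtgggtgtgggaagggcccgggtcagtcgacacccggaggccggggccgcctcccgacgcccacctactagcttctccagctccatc
Idi1, chr17:66547525-66547774, minus strand: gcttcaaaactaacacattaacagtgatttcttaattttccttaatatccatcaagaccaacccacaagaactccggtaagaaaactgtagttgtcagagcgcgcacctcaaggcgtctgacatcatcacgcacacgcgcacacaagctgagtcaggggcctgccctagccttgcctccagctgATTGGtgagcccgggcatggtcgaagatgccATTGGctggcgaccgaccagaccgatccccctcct
Insig1, chr4:8057770-8058019, minus strand: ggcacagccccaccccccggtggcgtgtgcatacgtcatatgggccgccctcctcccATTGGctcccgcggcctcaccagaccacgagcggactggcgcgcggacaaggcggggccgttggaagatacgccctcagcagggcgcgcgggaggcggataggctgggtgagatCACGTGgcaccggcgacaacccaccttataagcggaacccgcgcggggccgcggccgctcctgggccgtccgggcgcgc
CCAAT, the box bound by NF-Y, which often works beside SREBP, stood in 4 of the 6 member stretches (Fdps, Hmgcs1, Idi1 and Insig1), against 34% of 33469 rat stretches of this length. The Idi1 stretch holds it at -66 and -35 from the start, both times on the reverse strand, and the Cyp51 stretch holds none. CACGTG, an E-box, stood in the Insig1 stretch alone among the 6, against 5.59% of all. The letters TCACNCCAC, a form of the sterol regulatory element searched on both strands, stood in 0 of the 6, against 0.974% of all. These are letter matches in one window only.

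The arrays carried the hypothalamic peptide genes at high level in every rat: Pmch, the gene of melanin-concentrating hormone, spanned 11.85 to 12.37 log2 units and Avp, of vasopressin, 10.49 to 11.84. Array medians lay between 6.777 and 6.785. Most deposited values hardly moved: 1223 of 31042 probe sets (3.94%) ranged over more than 0.05 log2 units across the 9 rats and are called variable, while 29759 ranged over less than 0.01 and are called compressed. A difference between compressed values is not a measure of how many times more transcript there was. It shows only in which rats the deposited value was higher or lower.

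Of the 10 member probe sets 2 were variable, 1 each for Cyp51 and Idi1, and 8 were compressed. Those of Sqle, Insig1, Dhcr7 and Fdps, both of Fdft1 and a further one each of Cyp51 and Idi1 ranged over 0.000311 (Dhcr7) to 0.000963 log2 units (Cyp51), where the median compressed probe set ranged over 0.000503. The variable ones were at the quiet end of their class. Cyp51 (1367979_s_at) had a range of 0.178, at the 7.8th percentile of variable probe sets, and Idi1 (1368878_at) one of 0.254, at the 15.6th. The suffix of the Cyp51 probe set is the manufacturer's mark for probes that can match more than one transcript.

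No diet difference of a member passed the test across all probe sets. Cyp51 measured 10.06, 10.07, 9.98 and 9.90 log2 units in noodle-diet rats 1, 4, 7 and 13, against 9.95, 10.01, 9.89, 9.92 and 9.92 in control rats 2, 5, 8, 11 and 14. Noodle-diet rats 1 and 4 stood above every control, the other noodle-diet rats lay among the controls, and the groups overlapped. Noodle-diet rats averaged 10.002 ± 0.079 and control rats 9.938 ± 0.045 (SD, n = 4 and 5), which is 0.064 log2 units apart. Its 95% interval ran from -0.028 to 0.16 (limma unadjusted p = 0.146, adjusted p = 1), which is 0.981-fold to 1.11-fold. The exact 2-sided permutation test over the 126 splits of the rats gave p = 0.175, where 0.00794 is the smallest it can give.

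Idi1 measured 8.58, 8.49, 8.33 and 8.45 in noodle-diet rats 1, 4, 7 and 13, against 8.33, 8.36, 8.42, 8.49 and 8.43 in control rats 2, 5, 8, 11 and 14. The highest and the lowest of the 9 values both came from noodle-diet rats, numbers 1 and 7. Noodle-diet rats averaged 8.46 ± 0.11 and control rats 8.41 ± 0.063, which is 0.053 apart (95% interval -0.070 to 0.18, or 0.953-fold to 1.13-fold; limma unadjusted p = 0.346, adjusted p = 1; exact permutation p = 0.397). The size of both differences rested on single rats. That of Idi1 was 0.013 without noodle-diet rat 1 and 0.098 without noodle-diet rat 7, and that of Cyp51 was 0.042 without noodle-diet rat 4 and 0.098 without noodle-diet rat 13, where the unadjusted limma p of 0.0203 did not pass after adjustment. In whole tissue, fewer cells of a type and less RNA per cell cannot be told apart.

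**Figure D1:**
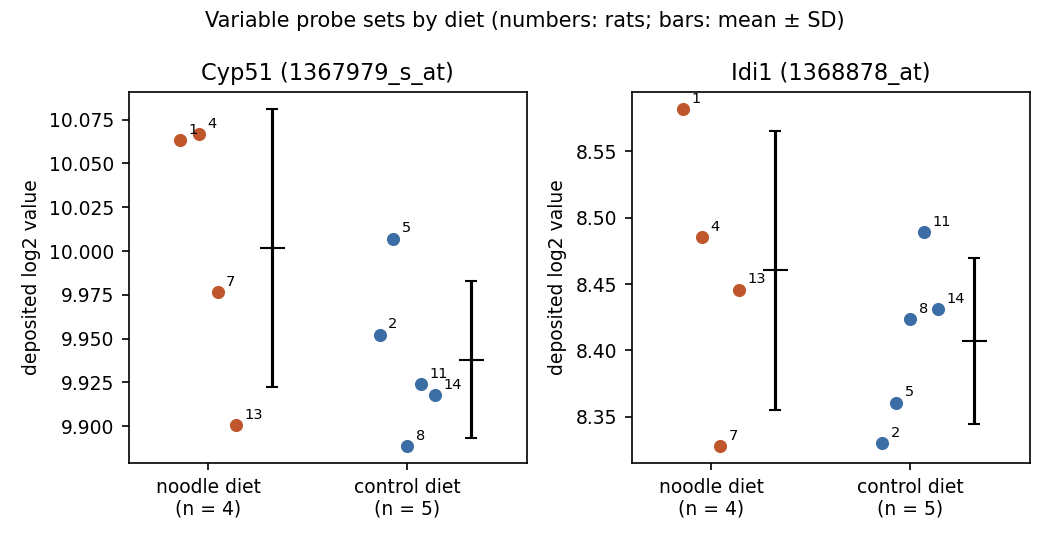
Deposited log2 values (vertical axis) of the variable Cyp51 and Idi1 probe sets in each rat, with noodle-diet rats at the left and control rats at the right of each panel; numbers name the rats and bars give mean ± SD. The groups overlap in both panels, with noodle-diet rats 1 and 4 above every control for Cyp51 and rat 1 for Idi1.

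Among the compressed members the groups overlapped as well. Sqle, the enzyme that commits squalene to sterols, gave the lowest p of them, with a difference of 0.000155 (95% interval -7.7e-05 to 0.000388; limma unadjusted p = 0.161, adjusted p = 1). Its values in noodle-diet rats 1, 4, 7 and 13 lay 342, 177, -145 and -28.7 millionths of a log2 unit from the mean of 9, and those of rats 1 and 4 were above all 5 controls. Without noodle-diet rat 7 its unadjusted limma p of 0.0372 did not pass after adjustment, and with quantile normalization its sign turned. The second Fdft1 probe set (1389906_at) had noodle-diet rats 1 and 4 above every control and rats 7 and 13 below every control. The remaining compressed members had unadjusted p from 0.637 (Fdft1, 1367839_at) to 0.987 (the compressed Idi1 probe set, 1388872_at). Over all 10 member probe sets 6 were higher on the noodle diet, near the background of 48% of all probe sets. With quantile normalization it was 3 of 10, where 7269 of 31042 probe sets were higher, and with a common array median 9 of 10, where 21629 were. On the deposited scale the median difference of the members was 1.17e-05, against -4.62e-06 over all. By limma 0 of the 10 had an adjusted p under 0.05, where 0% of 31042 probe sets did. At an unadjusted p under 0.05 it was 0 of 10, with a background of 2.29% (0.944% higher and 1.35% lower on the noodle diet). Of the 2 variable members both were higher on the noodle diet, where 51.9% of variable probe sets were, and 0 had an unadjusted p under 0.05, where 0.899% did. Groups that did not overlap were found for 0 of 10, with a background of 0.567%.

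The order of the rats in the member probe sets was described by counts of ranks and sides. Noodle-diet rat 1 ranked first or second of the 9 rats in 10 of 10 member probe sets, a place it held in 22.57% of all probe sets. Noodle-diet rat 4 was above the mean in 9 of 10, while noodle-diet rat 7 was below it in 9 of 10 and noodle-diet rat 13 in 8 of 10. Among controls, rat 2 was below the mean in 8 of 10, and rats 5, 8, 11 and 14 were above it in 6, 5, 5 and 4 of 10. No share over all probe sets is given for these counts of sides, so they describe the members alone. The highest and the lowest median deviation, 1.19 SD in rat 1 and -0.95 SD in rat 7, thus both came from the noodle diet. The probe sets share the same 9 RNA samples, so they are not independent counts of it.

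**Figure D2:**
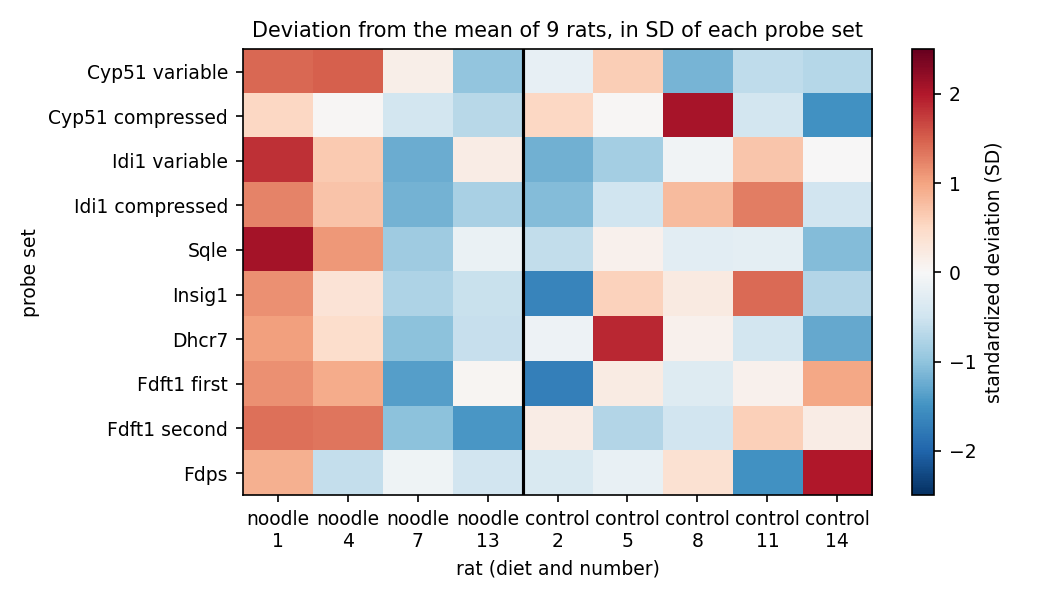
Each row is a member probe set and each column a rat, noodle-diet rats left of the line and control rats right of it; colour gives the deviation from the mean of the 9 rats in SD of that probe set, so compressed and variable rows share a scale. Noodle-diet rat 1 is above the mean in all 10 rows and noodle-diet rat 7 below it in 9, while Fdps at the bottom follows another order.

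Whether compressed values carry a gene's pattern was read from genes with probe sets of both kinds. Over 570 such pairs on the array the median Pearson r over the 9 rats was 0.46, against -0.02 for variable and compressed probe sets taken over all genes. The pair of Idi1 stood at r = 0.826 (rho = 0.817), so the compressed Idi1 probe set ordered the rats much as the variable one. The pair of Cyp51 stood at r = 0.037, so the probe sets of this gene did not share an order. For Fdft1, with both probe sets compressed, r was 0.507, where the median of 8868 such same-gene pairs was 0.18.

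Between genes, the variable probe sets of Cyp51 and Idi1 had r = 0.330 (rho = 0.167; exact permutation p = 0.384 and 0.678 over 9 rats). Without noodle-diet rat 1 it was -0.064, and without the rats farthest from the Cyp51 median, numbers 1 and 4 of the noodle diet, -0.708. Cyp51 and Idi1 were thus both high in rats 1 and 4 and were otherwise unlike: control rat 11 was among the highest for Idi1 and below the mean for Cyp51.

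Over the 42 pairs of member probe sets from different genes, chosen for description after the values had been seen, the median r was 0.36, where the median of all pairs of probe sets on the array was 0.00. An r of 0.7 or more was reached by 5 of the 42, against 2.59% of all pairs. Among the 27 pairs with both probe sets compressed it was 1 (3.7%), near that background. The other pairs at 0.7 or more each held the variable probe set of Cyp51 or Idi1. Compressed Idi1 with Insig1 had r = 0.859 (rho = 0.833; exact permutation p = 0.00516 and 0.00827). Idi1 with Fdft1 (1367839_at) had r = 0.798, and Idi1 with Insig1 r = 0.705. Sqle followed both variable genes, with r = 0.762 with Cyp51 and 0.759 with Idi1, but without the rats farthest from the median of Cyp51 and of Idi1 these were 0.092 and 0.378. No pair passed after adjustment over the 42 (smallest adjusted p = 0.170 by exact permutation), while 2 did without control rat 5. The number at 0.7 or more was 2 without noodle-diet rat 1, 8 without control rat 11 and 10 without control rat 14, and 8 with values centred within each diet. The order of the rats in compressed members is a property of the deposited scale: after quantile normalization Cyp51 with Sqle had r = -0.534 and Idi1 with Sqle -0.245, and array medians differ by more than a compressed probe set ranges.

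The members differed in how like they were to one another. Set against the mean standardized pattern of the other measured member genes, Sqle had the highest r, 0.851, followed by Idi1 (0.709 and 0.707 for its probe sets), Fdft1 (0.677 and 0.624), Insig1 (0.648), the variable Cyp51 probe set (0.604) and Dhcr7 (0.530). The compressed Cyp51 probe set stood at 0.240 and Fdps, the farnesyl diphosphate synthase gene, at -0.060. Fdps was highest in control rat 14 and lowest in control rat 11, where compressed Idi1 and Insig1 were highest.

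Myelin genes were set against the members because myelin draws on sterol synthesis. The myelin score of a rat is the mean deviation of 13 variable myelin genes, of 14 measured and 16 listed, from their mean over the 9 rats. It was 0.174, -0.006, -0.108 and -0.055 in noodle-diet rats 1, 4, 7 and 13, against -0.190, 0.128, 0.367, -0.097 and -0.212 in control rats 2, 5, 8, 11 and 14. The summed log2 level of the 13 genes spanned 124.94 to 128.61 on the noodle diet and 123.59 to 131.11 on the control diet. The score differed by 0.002 between diets (exact permutation p = 0.984). With it as a covariate, the diet difference of Cyp51 was 0.064 and that of Idi1 0.053, as without it. A score that hardly differs between diets cannot move these differences much, so no conclusion is drawn from this fit.

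With the score Cyp51 had r = 0.123 (rho = 0.133) and Idi1 r = 0.302 (rho = 0.333), and neither passed. The exact permutation p of r was 0.759 for Cyp51 and 0.430 for Idi1, with 0.907 for both after adjustment over 10 relations (2 probe sets with 5 cell-type scores), and rho gave 0.744 and 0.385 (0.900 adjusted). Control rat 8 stood apart here: it had the highest myelin score of the 9 rats and the lowest Cyp51. Without it the r of Cyp51 was 0.710 and that of Idi1 0.474. Without noodle-diet rat 1 the r of Cyp51 was -0.080 and that of Idi1 0.098. Without both rats, the farthest from the median score, r was 0.560 for Cyp51 and 0.064 for Idi1. With 4 and 5 rats a diet, no r was computed within a diet. Centred within diets, r was 0.139 for Cyp51 and 0.319 for Idi1.

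**Figure D3:**
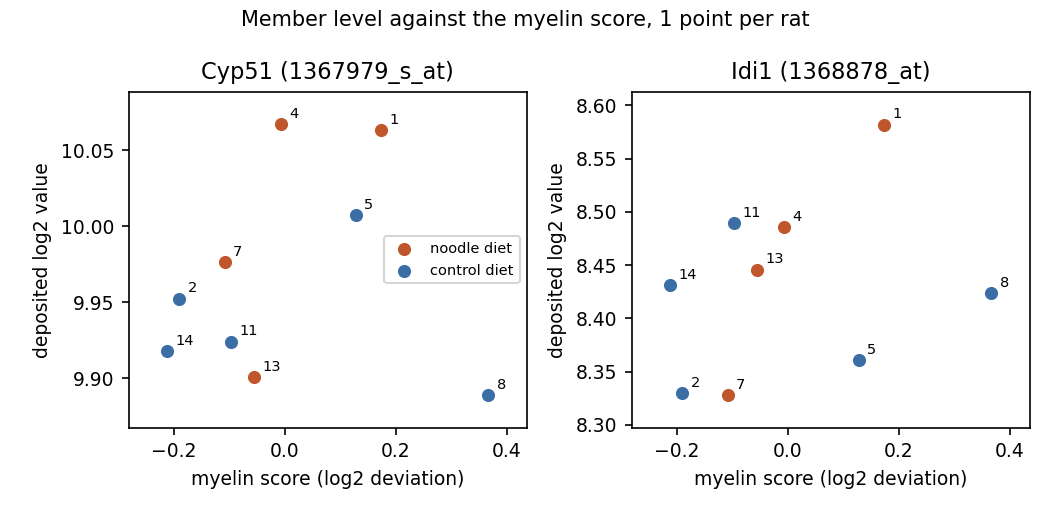
Deposited log2 values of the variable Cyp51 (left) and Idi1 (right) probe sets against the myelin score of the same rat, the mean log2 deviation of 13 myelin genes; points are rats, coloured by diet and numbered. Control rat 8 has the highest score, 0.367, and the lowest Cyp51 value, away from the other rats.

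Over the 13 single myelin genes r with Cyp51 ran from -0.018 (Ugt8) to 0.370 (Plekhb1), and r with Idi1 from 0.095 (Mag) to 0.499 (Aspa). Mbp, of myelin basic protein, and Mog, of a glycoprotein of the outer myelin surface, had r = 0.024 and 0.040 with Cyp51, and 0.368 and 0.314 with Idi1. Among the compressed members, r with the myelin score was 0.795 for the compressed Cyp51 probe set, 0.618 for Dhcr7, 0.529 for Insig1, 0.522 for compressed Idi1 and 0.492 for Sqle. For Fdft1 it was 0.233 and 0.010, and for Fdps 0.069. The compressed Cyp51 probe set was highest in control rat 8, and without that rat and noodle-diet rat 1 its r was 0.354. Without the same rats r was higher for Dhcr7 (0.856), Sqle (0.683), Insig1 (0.577) and the first Fdft1 probe set (0.289). It was lower for compressed Idi1 (0.198), the second Fdft1 probe set (-0.167) and Fdps (-0.385). None passed over the 50 relations of all 10 probe sets with 5 scores (smallest adjusted p = 0.226 by exact permutation).

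Astrocyte markers were set against the members as well. The astrocyte score, of 8 variable genes of 11 measured and 12 listed, had r = 0.337 with Cyp51 and 0.270 with Idi1, and among the compressed members from -0.054 with the second Fdft1 probe set to 0.803 with Dhcr7. It had r = 0.643 with Sqle, 0.576 with compressed Cyp51, 0.356 with Insig1, 0.240 with the first Fdft1 probe set, 0.229 with compressed Idi1 and 0.092 with Fdps. For Dhcr7 and Sqle the exact permutation p was 0.00843 and 0.0560 (adjusted p = 0.226 and 0.591), and without the rats farthest from the median score r was 0.574 and 0.373. Over the 8 single astrocyte genes r with Cyp51 ran from -0.360 (Glul, glutamine synthetase) to 0.766 (Aqp4, the water channel of astrocyte end-feet), and r with Idi1 from -0.286 (Aldh1l1) to 0.663 (Gja1). The meninges score had r = 0.113 with Cyp51 and 0.156 with Idi1, and among the compressed members from -0.048 with the first Fdft1 probe set to 0.738 with compressed Cyp51 (rho = 0.867, exact permutation p = 0.0136 for r and 0.00451 for rho, adjusted p = 0.226 and 0.225), with Dhcr7 at 0.609. For the variable Cyp51 and Idi1 probe sets the neuron score gave 0.046 and -0.124, and the microglia score gave -0.072 and -0.324. Among the compressed members the neuron score gave r from -0.615 with compressed Cyp51 to 0.450 with Fdps. The microglia score gave r from -0.177 with compressed Idi1 to 0.540 with Dhcr7. The scores of noodle-diet rats less those of control rats differed by 0.035 for astrocytes, 0.016 for neurons and -0.018 for meninges (exact permutation p = 0.595, 0.794 and 0.944). The microglia score lay between -0.174 and 0.039 in noodle-diet rats and between -0.072 and 0.203 in control rats (difference -0.142, exact permutation p = 0.0635). The summed log2 level of the 8 astrocyte genes spanned 80.68 to 82.36 in noodle-diet rats and 80.33 to 82.18 in control rats. The part of these cell types in the members' pattern was not tested.

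The other enzymes of sterol synthesis were set against the mean pattern of the members across rats. All 22 probe sets of the 13 measured genes of 15 listed were compressed. Their r with the mean pattern of the members had a median of 0.29 and was above 0 in 20 of 22, where the median of all 31042 probe sets was -0.05 and 14264 of them were above 0. An r of 0.7 or more was reached by 1 of 22, with a background of 1.99%: Msmo1, the sterol C4 demethylase, at 0.88. Acat2, which opens the mevalonate pathway, stood at 0.68 and Mvd, mevalonate diphosphate decarboxylase, at -0.44; both were named after their values were seen.

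Counts by diet among compressed probe sets depend on the normalization. Of all 31042 probe sets 7269 were higher on the noodle diet with quantile normalization and 21629 with a common array median. On the deposited values 15 of these 22 probe sets were higher on the noodle diet and 7 lower, where 48% of all were higher. Of the 22, 0 had an unadjusted p under 0.05 (2.29% of all), and their median difference was 1.73e-05. The lowest p were those of Lss, lanosterol synthase (1372973_at, difference -0.00018), Tm7sf2, a sterol reductase (-0.000127), Pmvk, phosphomevalonate kinase (0.000118), and Msmo1 (8.34e-05). Their unadjusted limma p ran from 0.0910 to 0.299, with adjusted p = 1 for each.

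For genes that control SREBP or take sterol up, the median r of 24 probe sets was 0.09, with 14 of them above 0. The range was wide. Insig2, the second anchor of SREBP, stood at -0.68 and -0.12 for its 2 probe sets. The lipoprotein receptor gene Vldlr stood at 0.78, 0.75, 0.44 and -0.03 for its 4 probe sets. Mylip, which marks lipoprotein receptors for breakdown, stood at 0.71. Srebf2, the gene of SREBP2, stood at 0.13 and -0.65, and Scap at -0.06 and 0.36. All were named after their values were seen. Uptake rests here on Vldlr, Lrp1, Lrp8, Scarb1 and Npc2. Npc2, which carries cholesterol out of lysosomes, was the only variable one, at 9.932 ± 0.044 in noodle-diet rats and 9.964 ± 0.095 in control rats. The difference was -0.032, with an unadjusted limma p of 0.540 and an adjusted p of 1. Of the compressed ones the lowest p were those of Lrp1 (1396767_at, -7.85e-05), Scarb1 (1367855_at, -0.000126), Stard4 (1396521_at, 9.48e-05) and Vldlr (1369098_at, 9.27e-05). Their unadjusted limma p ran from 0.0761 to 0.120, with adjusted p = 1 for each. By diet 13 of the 24 were higher on the noodle diet (48% of all probe sets), and 0 had an unadjusted p under 0.05 (2.29% of all).

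Efflux and storage genes had a median r of 0.09 over 19 probe sets, with Cyp46a1, the neuronal hydroxylase that turns cholesterol into a form the brain can export, lowest at -0.83 and named for that value. Ch25h, a cholesterol hydroxylase and the one variable gene, averaged 6.38 ± 0.37 in noodle-diet rats and 6.51 ± 0.26 in control rats. The difference was -0.134, with an unadjusted limma p of 0.517 and an adjusted p of 1. The lowest p among the compressed ones were those of Soat1, which esterifies cholesterol (1374976_a_at, 0.000372), Abcg1, an efflux pump (1373995_at, -0.00016), Cyp7b1, an oxysterol hydroxylase (0.000313), and Nr1h3, a nuclear receptor for oxysterols (0.000169). Their unadjusted limma p ran from 0.0597 to 0.199, with adjusted p = 1 for each. Of the 19, 9 were higher on the noodle diet (48% of all probe sets) and 0 had an unadjusted p under 0.05 (2.29% of all).

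The fatty acid targets of SREBP1 had a median r of 0.33 over 15 probe sets. Scd, the stearoyl-CoA desaturase, had r = 0.63 with Cyp51 and 0.11 with Idi1, and differed by 0.0065 between diets (unadjusted limma p = 0.841, adjusted p = 1). The variable Elovl5 probe set 1388348_at, of a fatty acid elongase, had r = 0.24 with each and a difference of 0.024 (unadjusted limma p = 0.714, adjusted p = 1), and the other, 1387630_at, had r = -0.16 with Cyp51 and 0.59 with Idi1. The compressed Fads1 probe set, of a fatty acid desaturase, had r = 0.84 with Cyp51 and 0.46 with Idi1. The former is the highest r with Cyp51 on this list, given after the values were seen, and was not tested. The compressed genes of lowest p here were Acaca, acetyl-CoA carboxylase (1387538_at, difference 0.000149), Me1, malic enzyme (1370067_at, 0.000126), Fads1 (9.1e-05) and Acly, ATP citrate lyase (5.94e-05). Their unadjusted limma p ran from 0.125 to 0.5003, with adjusted p = 1 for each. Of these 15, 10 were higher on the noodle diet (48% of all probe sets) and 0 had an unadjusted p under 0.05 (2.29% of all). Of the marker lists, myelin probe sets had a median r of 0.57 with the members' mean pattern, meninges 0.41, astrocytes 0.19, microglia 0.03 and neurons -0.13. These medians mix kinds of probe set, since 21 of 23 myelin but 9 of 21 astrocyte probe sets were variable. With the scores, which use variable genes alone, the mean pattern had r = 0.60 for myelin and 0.60 for astrocytes, 0.41 for meninges, 0.08 for microglia and -0.17 for neurons. These r were not tested. Noodle-diet rat 1 was highest in the mean pattern (0.449, followed by 0.194 in noodle-diet rat 4). It also had the highest astrocyte and meninges scores (0.136 and 0.647), and how far these r rest on it was not tested.

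**Figure D4:**
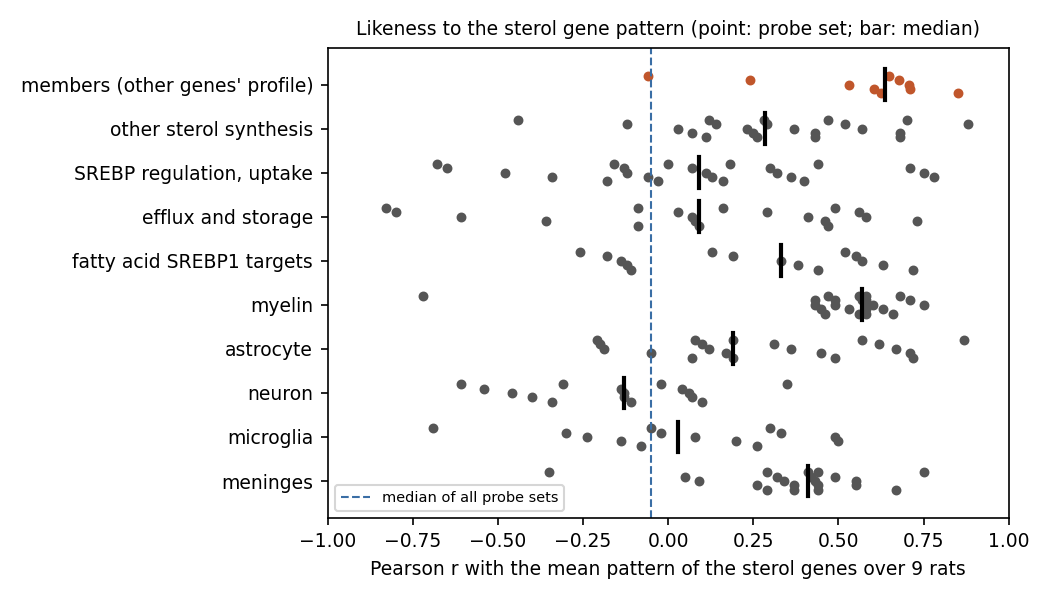
Pearson r over the 9 rats between each probe set and the mean standardized pattern of the member genes, by gene list from top to bottom; for the members (top row) the pattern is that of the other member genes. Bars give medians, 0.64 for the members, 0.29 for other sterol synthesis and 0.57 for myelin, and the dashed line the median of all probe sets, -0.05.

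The genes most like each variable member among 934 variable named probe sets were given by Pearson r over the 9 rats. These genes and the most opposed ones were picked as the extremes of many r over few rats. A high r is thus built into the choice, and none was tested. For Cyp51 the most like were Cwc25, a splicing factor (r = 0.814), Slc14a1, a urea transporter (0.812), and Lix1 (0.803). Without noodle-diet rats 1 and 4 these were 0.800, 0.432 and 0.867. For Idi1 they were Atp1b2, a sodium pump subunit of glia (0.862), Zeb2, a transcription factor (0.851), and Dhx36, a helicase (0.806), and none of them fell below 0.759 without the rats farthest from the Idi1 median. The most opposed gene was Dbp, a clock-controlled transcription factor, for Cyp51 (-0.866), and Dennd1b for Idi1 (-0.932). Without the rats farthest from the median of Cyp51 and of Idi1 these were -0.666 and -0.870. No gene stood on the lists of both members.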

How the data were processed

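Per the labels' protocols, 100 ng of TRIzol-extracted, column-purified hypothalamic RNA was turned into cRNA carrying biotin. The deposited log2 values cover 31099 probe sets in 9 rats; that they are log2 was read from their range (5.13 to 13.7). The sources used here do not state the authors' summarization or normalization. Values were used as deposited, without the 57 control probe sets. Names come from the platform annotation (20826 probe sets with 1 symbol, 436 with several, 9780 unnamed), matched by gene number to rat genes of GRCr8.

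Diets were compared with limma 3.58.1 in R 4.3.3 (lmFit, eBayes with an intensity trend, 2-sided, Benjamini-Hochberg over 31042 probe sets, threshold 0.05). The fit was also run on simulated data with shifts far above the member differences, so that run does not bear on differences of their size. Differences are noodle minus control. Correlations are Pearson and Spearman over 9 rats, with exact 2-sided permutation over all pairings. Arrays are of different rats, and their number limits precision. The limma p-values and intervals use the spread of the rats after eBayes moderation over all probe sets fitted, most of them compressed. With variable probe sets fitted alone, both variable members had wider intervals. That of Cyp51 ran from -0.044 to 0.172 (limma unadjusted p = 0.215) and that of Idi1 from -0.087 to 0.194 (limma unadjusted p = 0.413).

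Named were all member probe sets; in each other sterol list the variable genes and up to 4 compressed genes of lowest p; the variable genes of the marker scores, of which a few are printed; and 3 variable genes most like each variable member. The members and lists were chosen with earlier results of these data known, and the limits of 0.05 and 0.01 log2 units likewise. Alternatives are given in the closing section.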

Additional observations from a re-analysis of the deposited data

How the results depend on the processing

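With low means left out 0 of 24833 probe sets passed, and with variable probe sets alone 0 of 1223. Other alternative fits were quantile normalization, common array median, no trend, robust variance, array weights, myelin covariate and each rat left out. In these and in the limma fit 0 of 31042 passed. At an unadjusted p under 0.05 there were 712 (293 higher and 419 lower on the noodle diet), against 127 with quantile normalization (12 and 115), 16 with a common array median (11 and 5) and 1155 without control rat 14; variable probe sets fitted alone gave 7, against 11. Cyp51 (0.0421 to 0.0975), Idi1 (0.0128 to 0.0976) and Sqle (7.03e-05 to 0.000232) kept their sign with single rats left out. Sqle turned to -0.000787 with quantile normalization, and Cyp51 stood at 0.032 with array weights. With single rats left out, compressed Cyp51 ran from -0.000186 to 5.50e-05, compressed Idi1 from -8.80e-05 to 7.79e-05, Insig1 from -4.87e-05 to 6.32e-05, Dhcr7 from -4.12e-05 to 3.92e-05, Fdft1 from -1.64e-05 to 0.000251 and from -3.86e-05 to 7.23e-05, and Fdps from -7.83e-05 to 5.44e-05. Signs also turned with quantile normalization for Insig1 (-0.00150) and Fdft1 (-0.00136), with a common array median for compressed Idi1 (5.22e-05), Dhcr7 (4.80e-05) and Fdps (3.54e-05), and with array weights for Insig1 (-9.77e-06) and Fdft1 (-4.27e-05). A common array median shifts all probe sets of an array alike, so it moved every diet difference by the same amount. Why the other signs turned was not tested.

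With single rats left out, r with the myelin score ran from -0.080 to 0.710 for Cyp51 and from 0.098 to 0.474 for Idi1, and r of Cyp51 with Idi1 from -0.064 to 0.436; it was -0.708 without the farthest 2 rats. The median r of the 42 member pairs ran from 0.259 to 0.515, the pairs at 0.7 or more from 2 to 10, and the pairs passing from 0 to 2. With values centred within diets 8 pairs reached 0.7. Quantile normalization gave a median of 0.900 and a common array median 0.996, with 27 pairs at 0.7 or more and 27 passing in each; there a shift of a whole array exceeds the range of a compressed probe set, so compressed probe sets move together by construction. Pairs of a variable with a compressed member then turned: with quantile normalization Cyp51 with Sqle to -0.534 and Idi1 with Sqle to -0.245, with Insig1 to -0.382 and with Fdft1 to -0.309; with a common array median to -0.121, -0.067, -0.073 and -0.025. The order of rats in compressed members was thus read on the deposited scale alone. The labels do not state which rats were fed as partners, so no paired analysis was made. Dixon tests of 30 diet groups marked 0 single rats as distant.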
